A study of Mus musculus with 8 samples.

Results

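The tumour necrosis factor (TNF) superfamily is a set of cell-surface and secreted ligands and the receptors that bind them. Its members were taken from the count table by symbol: every Tnfsf and Tnfrsf gene, together with Lta, Ltb, Ltbr, Tnf, Cd27, Cd70, Cd40, Cd40lg, Fas and Fasl. This gave 41 of 24506 genes, 17 of them ligands and 24 of them receptors. Symbols alone decided membership, but members and gene lists were chosen with earlier results of these data known. The shares called below thus describe the family and are not an independent test of it.

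Most ligands of the family are trimers that bring together receptors on a neighbouring cell. Receptors with a death domain can start apoptosis or inflammation through FADD or TRADD, and the costimulatory receptors bind TRAF adaptors and feed the NF-kappaB pathways. In the thymus the family is known for crosstalk: lymphotoxins made from Lta and Ltb and the ligand RANKL, encoded by Tnfsf11, signal from lymphoid cells to the epithelium that carries Ltbr and Tnfrsf11a. Lymphoid tissue inducer cells and other innate lymphoid cells also make these ligands. STAT5, encoded by Stat5a and Stat5b, is the transcription factor that acts downstream of the IL-7 receptor and of other cytokine receptors.

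RNA was measured by bulk sequencing in T-cell progenitors grown from mouse bone marrow. There were 8 libraries, 2 in each of 4 groups: post-commitment sgStat5, post-commitment sgControl, pre-commitment sgStat5 and pre-commitment sgControl. The sgStat5 cells carried retroviral guide RNAs, 3 against Stat5a and 3 against Stat5b, and the sgControl cells carried control guides, about whose target the sources used here say nothing. The comparisons ask which genes depend on STAT5 on either side of commitment to the T lineage.

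All 4 groups came from B6 mice that express Cas9 and a Bcl2 transgene, so the control cells also carried the anti-apoptotic Bcl2. A Bcl11b-mCherry reporter marked commitment, since Bcl11b is switched on when a progenitor commits. Cells were sorted as lineage-negative, positive for the infection marker and CD25+, and then as mCherry+ for the post-commitment gate or mCherry- for the pre-commitment gate. One line of the series description calls the mCherry+ cells reporter negative, and the gate is used here as the sample labels give it. Before the sort, cells grew over OP9-DLL1 stroma, a marrow-derived line made to present the Notch ligand DLL1. The culture lasted 6 days and held 10 ng/ml of IL-7 and the same of Flt3l. Progenitors grown this way have no thymic epithelium around them. It is not stated whether the replicates come from different cultures or animals, so every p-value measures only the spread between these libraries.

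Libraries held 22146490 to 31209177 counts, and 13775 genes passed the filter on low counts. Stat5a transcripts, the check of the label, reached 116 and 108 CPM (a library-size-scaled count) in post-commitment sgStat5 libraries, against 257 and 238 CPM in post-commitment sgControl libraries. In the pre-commitment gate Stat5a had 106 and 105 CPM in sgStat5 libraries, against 258 and 257 CPM in sgControl libraries. Stat5b was lower too, by -0.89 (post) and -0.86 (pre) on the log2 scale, with adjusted p = 0.00876 and 0.0280 in edgeR's quasi-likelihood test. Guides that cut a gene need not remove its RNA, so these levels check the labels and do not measure the loss of protein. All 11 T-progenitor markers examined reached at least 1 CPM in some library, while of the B-cell markers Pax5, Cd79a and Ms4a1 stayed under 1 CPM in all, Ebf1 reached 5.31 CPM and Cd79b had 5.55 to 14.6 CPM. Bcl11b followed the gate, with 797, 415, 542 and 219 CPM in the post-commitment libraries (sgStat5 replicates 1 and 2, then sgControl replicates 1 and 2), against 132, 70.1, 132 and 45.6 CPM in the pre-commitment libraries in the same order. Replicate 1 was higher than replicate 2 in each group. Summed, the T-progenitor markers overlapped between guide groups after commitment. Before it, sgStat5 libraries had 5578.9 and 5308.5 CPM, against 6602.7 and 5883.5 CPM in sgControl libraries. The markers differed in direction. Pre-commitment Thy1 was at 291 and 252 CPM in sgStat5 libraries, against 584 and 496 CPM in sgControl libraries. Il7r there was at 154 and 112 CPM, against 47.4 and 41.6 CPM.

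Promoter sequence is shown for the 4 members that met the threshold in the sgStat5 comparisons without any block, Lta, Tnfrsf9, Tnfrsf18 and Tnfsf11, and for Ltb, the neighbour of Lta that did not move with it. Windows are from RefSeq on GRCm38.p6 and run from 250 bases before an annotated start to 50 bases after it, 5′ to 3′ on the gene's strand. Capitals mark matches to TTCNNNGAA, the letters that STAT dimers are known to prefer, or to an NF-kappaB motif, spelled GGGA, any 2 bases, then TTCC. Both strands were searched, and positions count from the start base as 1.
Lta, chr17:35205302-35205601, minus strand: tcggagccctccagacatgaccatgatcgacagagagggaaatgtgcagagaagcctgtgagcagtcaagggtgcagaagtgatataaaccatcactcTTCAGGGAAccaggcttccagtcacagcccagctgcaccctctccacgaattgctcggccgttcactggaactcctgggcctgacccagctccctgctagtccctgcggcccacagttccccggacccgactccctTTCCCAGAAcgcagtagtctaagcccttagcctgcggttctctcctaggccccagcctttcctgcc
Tnfrsf9, second annotated start, chr4:150927749-150928048, plus strand: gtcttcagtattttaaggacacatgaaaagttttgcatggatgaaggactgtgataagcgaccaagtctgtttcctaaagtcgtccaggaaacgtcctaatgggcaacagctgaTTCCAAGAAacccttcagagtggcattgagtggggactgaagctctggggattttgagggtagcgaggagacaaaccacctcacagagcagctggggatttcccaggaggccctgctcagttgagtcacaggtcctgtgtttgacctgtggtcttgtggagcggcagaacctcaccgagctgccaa
Tnfrsf18, chr4:156026072-156026371, plus strand: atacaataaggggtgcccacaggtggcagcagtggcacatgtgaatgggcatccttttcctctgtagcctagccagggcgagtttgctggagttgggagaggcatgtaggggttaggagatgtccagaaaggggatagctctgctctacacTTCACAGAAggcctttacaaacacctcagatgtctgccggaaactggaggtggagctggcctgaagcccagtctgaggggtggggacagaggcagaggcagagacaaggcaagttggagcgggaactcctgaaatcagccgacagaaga
Tnfsf11, chr14:78307994-78308293, minus strand: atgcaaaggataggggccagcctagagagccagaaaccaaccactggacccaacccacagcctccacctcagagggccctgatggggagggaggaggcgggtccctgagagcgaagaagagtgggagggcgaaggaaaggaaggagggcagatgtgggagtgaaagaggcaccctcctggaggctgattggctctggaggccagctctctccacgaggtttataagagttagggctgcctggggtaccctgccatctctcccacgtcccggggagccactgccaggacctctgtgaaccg
Ltb, chr17:35194257-35194556, plus strand: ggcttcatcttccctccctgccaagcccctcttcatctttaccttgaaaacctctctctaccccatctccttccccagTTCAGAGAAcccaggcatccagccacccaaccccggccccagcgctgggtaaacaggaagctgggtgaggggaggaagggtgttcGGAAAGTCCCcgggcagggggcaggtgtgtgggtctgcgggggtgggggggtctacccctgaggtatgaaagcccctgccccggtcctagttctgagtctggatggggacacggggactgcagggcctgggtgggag

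The Lta window holds TTCNNNGAA at -152 and at -16. Of 32851 windows over all genes, 8.30% hold these letters at least once and 0.457% hold them 2 or more times. The second Tnfrsf9 window has them at -136 and the Tnfrsf18 window at -99, while the first Tnfrsf9 window and the Tnfsf11 window have none. The Tnfrsf9 transcript of the count table starts at 150920155, in the first window (150919905 to 150920204), which is not printed. Ltb carries TTCNNNGAA at -172 and the NF-kappaB motif, read on the opposite strand, at -87. None of these matches overlaps another. The table held windows for 31 of the 41 members, 35 windows in all, of which 9 (25.7%) have TTCNNNGAA. The other members with a match are Fas, Tnfrsf1a, Tnfrsf1b, Tnfrsf19 and Tnfrsf25, none of which met the threshold for sgStat5 against sgControl, and Tnfsf8, Cd27 and Tnfsf10, which met it with the block, have no match. The NF-kappaB motif, in the spelling searched, was found in 1.47% of all windows and in 1 member, Ltb. Other spellings were not searched, and the second Tnfrsf9 window holds GGGATTTCCC, left in lower case because it differs from that spelling. These letters describe the windows and do not show binding.

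Levels between genes are compared on the authors' FPKM scale, which divides by transcript length. A few members carried most of the family's RNA. Among receptors Cd27, the costimulatory receptor that marks developing lymphocytes, led with a mean of 58.5 FPKM over all libraries. It was followed by Tnfrsf1b (TNF receptor 2) with 11.1 FPKM, Tnfrsf21 (death receptor 6) with 10.3 FPKM, Tnfrsf18 (GITR) with 9.68 FPKM and Tnfrsf1a (TNF receptor 1) with 7.95 FPKM. The ligands were led by Ltb (lymphotoxin beta) with a mean of 28.8 FPKM and by Tnfsf10 (TRAIL) with 25.4 FPKM. Next came Tnfsf11 (RANKL) with 9.81 FPKM, Tnf with 4.11 FPKM and Tnfsf14 (LIGHT) with 3.01 FPKM.

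Of the 41 members, 5 averaged at least 10 FPKM, 21 at least 1 FPKM and 20 less than 1 FPKM. The count and FPKM tables use different transcripts for 10 members, Tnf, Tnfrsf9 and Tnfrsf18 among them. Cd27 had the highest mean of all members in each group, with 84.9 ± 8.88 FPKM in post-commitment sgStat5 cells, 56.1 ± 8.19 FPKM in post-commitment sgControl cells, 52.2 ± 6.61 FPKM in pre-commitment sgStat5 cells and 40.6 ± 4.35 FPKM in pre-commitment sgControl cells (SD, n = 2 each). The ranks below Cd27 were not clearly separated, since Ltb at 54.5 ± 25.3 FPKM and Tnfsf10 at 39.5 ± 2.36 FPKM in post-commitment sgStat5 cells differed by less than the spread of Ltb. In bulk RNA, fewer cells that express a gene and less RNA per cell cannot be told apart.

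The filter on low counts kept 33 members, 12 ligands and 21 receptors. The other 8, Cd40lg, Cd70, Tnfsf13b, Tnfsf15, Tnfsf18, Cd40, Tnfrsf17 and Tnfrsf19, had at most 8 counts in any library. Cd70 and Cd40lg, the ligands of CD27 and CD40, had 0 counts in all 8 libraries, which allows up to 0.0964 to 0.135 CPM per library (3 counts, covering counting error only). For CD27 with CD70 and for GITR with its ligand, only the receptor was thus measurable.

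**Figure D1:**
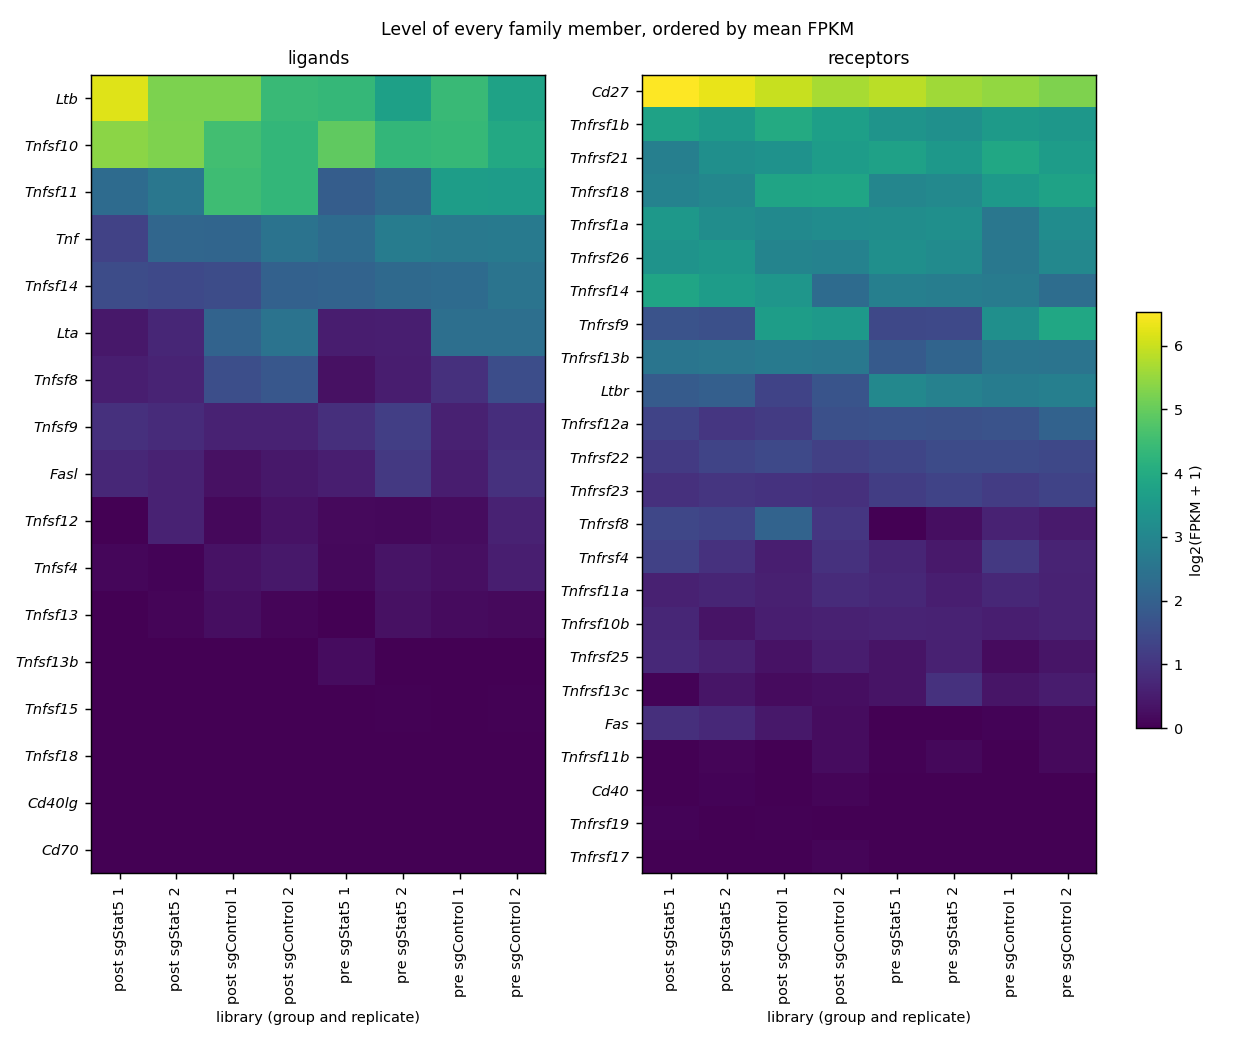
Level of all 41 members in each of the 8 libraries, as log2(FPKM + 1), with ligands at left and receptors at right, ordered by mean FPKM. Columns run post-commitment sgStat5, post-commitment sgControl, pre-commitment sgStat5 and pre-commitment sgControl. Cd27 is the brightest receptor row, Ltb and Tnfsf10 the brightest ligand rows, and the Tnfsf11, Lta and Tnfrsf9 rows are darker in the sgStat5 columns of both gates.

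In sgStat5 cells, 3 family members were several-fold lower than in sgControl cells in both gates: the ligands Lta and Tnfsf11 and the receptor Tnfrsf9. The receptor Tnfrsf18 was lower past the threshold after commitment. No member was higher past the threshold without a block. Replicate numbers recur in every group and the libraries with one number deviated together, so a fit with the replicate number as a block was also made. That fit added Tnfsf8 to the lower members in both gates and set Cd27 higher in both gates, with Tnfsf10 and Ltb higher after commitment.

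Post-commitment, 0 members were higher and 4 lower of 33 tested (12.1%), where 1.71% of all tested genes were called in either direction, 0.755% higher and 0.951% lower. With the block the counts were 3 higher and 5 lower (24.2%), where 8.22% of all tested genes were called, 3.72% higher and 4.49% lower. Pre-commitment, 0 members were higher and 3 lower (9.09%), where 0.269% of all tested genes were called, 0.123% higher and 0.145% lower. With the block 1 was higher and 4 lower (15.2%), where 2.33% were called, 1% higher and 1.33% lower. The median log2 fold change over the tested members was -0.21 post and -0.13 pre, beside -0.02 post and -0.0001 pre over all tested genes. Ligands sat lower than receptors at the median after commitment, at -0.66 over 12 ligands and -0.15 over 21 receptors. Libraries of the guide groups did not overlap for 9 higher and 11 lower members after commitment, where 18.1% of all tested genes were higher and 20.8% lower in this way. Before commitment they did not overlap for 7 higher and 12 lower members, where 18.7% and 19.4% of all tested genes did not.

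Lta encodes lymphotoxin alpha, which forms a secreted trimer alone or a membrane complex with lymphotoxin beta. After commitment it measured 0.619 and 1.15 CPM in sgStat5 libraries, against 6.24 and 8.97 CPM in sgControl libraries. Before commitment it measured 0.809 and 0.887 CPM in sgStat5 libraries, against 8.34 and 8.03 CPM in sgControl libraries. All sgStat5 libraries lay far below all sgControl libraries, with no overlap in either gate. The sgStat5 mean was 11.6% of the control mean after commitment and 10.4% before it. Lta fell by 3.09 on the log2 scale (SE 0.40, edgeR adjusted p = 0.0159) after commitment and fell by 3.26 (SE 0.41, edgeR adjusted p = 0.0382) before it. With the block the adjusted p was 0.000831 after and 0.00197 before commitment, and the call held with each library left out in turn, up to adjusted p = 0.0130 and 0.0327. Without the block, the post-commitment call was lost without post-commitment sgStat5 replicate 1 (adjusted p = 0.104), post-commitment sgControl replicate 2 (0.0742) or pre-commitment sgControl replicate 1 (0.0552). The pre-commitment call was lost without any of the 4 pre-commitment libraries (adjusted p = 0.205 to 0.331) or without either post-commitment sgControl library (0.0627 and 0.0698).

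Tnfsf11 encodes RANKL, which drives osteoclast formation and the maturation of medullary thymic epithelium through its receptor RANK. Post-commitment libraries held 11.5 and 15.1 CPM in sgStat5 cells, against 67.1 and 60.0 CPM in sgControl cells. Pre-commitment libraries held 8.63 and 11.5 CPM in sgStat5 cells, against 35.9 and 34.1 CPM in sgControl cells. Again the groups did not overlap, and the post-commitment sgControl libraries were the highest of all 8. Means in sgStat5 cells came to 20.9% of control after commitment and 28.8% before it. The log2 fold change was -2.26 (SE 0.20, edgeR adjusted p = 0.00452) after commitment and -1.79 (SE 0.19, edgeR adjusted p = 0.0213) before it. The post-commitment call held without each library in turn in both fits. The pre-commitment call held without each library in the block fit, up to adjusted p = 0.0177. Without the block it was lost when any of the 4 pre-commitment libraries (adjusted p = 0.0978 to 0.228) or post-commitment sgControl replicate 1 (0.0502) was left out.

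RANK itself, Tnfrsf11a, was present at 3.29 to 5.19 CPM in every library and overlapped between guide groups in both gates. Its log2 fold change was -0.21 (SE 0.35) after commitment and -0.13 (SE 0.35) before it, and neither passed. Tnfrsf11b, the soluble decoy osteoprotegerin that binds RANKL, had 0 to 0.613 CPM.

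Tnfsf8, the CD30 ligand, was low and showed the same direction. It stood at 1.41 and 1.72 CPM in post-commitment sgStat5 libraries, against 6.16 and 7.49 CPM in post-commitment sgControl libraries. The pre-commitment values were 0.719 and 1.40 CPM in sgStat5 libraries, against 2.79 and 5.82 CPM in sgControl libraries. Guide groups did not overlap in either gate, but the 2 control libraries differed from each other by more before commitment than after it. Without the block Tnfsf8 did not pass (log2 fold change -2.12, adjusted p = 0.120 post; -2.01, adjusted p = 0.313 pre). With the block it passed in edgeR at -2.13 (SE 0.37, adjusted p = 0.00853) post and -2.00 (SE 0.38, adjusted p = 0.0318) pre. The post-commitment call in the block fit was lost without post-commitment sgStat5 replicate 2 (adjusted p = 0.0758) or post-commitment sgControl replicate 1 (0.0821). The pre-commitment call was lost without any pre-commitment library (0.0948 to 0.272) or either post-commitment sgControl library (0.0553 and 0.0602).

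Tnfsf10, which encodes the death ligand TRAIL, was higher in post-commitment sgStat5 cells in the block fit. Its post-commitment levels were 272 and 253 CPM in sgStat5 libraries, against 155 and 132 CPM in sgControl libraries. Its pre-commitment levels were 199 and 134 CPM in sgStat5 libraries, against 139 and 96.4 CPM in sgControl libraries. The post-commitment guide groups did not overlap and the pre-commitment groups did, with replicate 1 above replicate 2 in all 4 groups. The post-commitment log2 fold change was 0.87 with adjusted p = 0.157 without the block, and 0.88 (SE 0.12, edgeR adjusted p = 0.00211) with it. Before commitment the value with the block was 0.49 (SE 0.12), which did not pass (adjusted p = 0.0750). The only signalling TRAIL receptor in mice, Tnfrsf10b, had 1.15 to 2.61 CPM, and the decoys Tnfrsf22 and Tnfrsf23 had 6.50 to 10.8 CPM and 4.02 to 6.98 CPM. None of these receptors passed in either gate.

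Ltb encodes lymphotoxin beta, the membrane anchor of the lymphotoxin complex. It lies in 1 cluster with Tnf and Lta on chromosome 17 (mm10, 35194507 to 35205351), where the 3 genes span 10845 bases and 1157 bases separate Tnf from Lta. Its levels were 106 and 54.1 CPM in post-commitment sgStat5 libraries, against 56.5 and 31.3 CPM in post-commitment sgControl libraries. In the pre-commitment gate they were 28.8 and 18.7 CPM in sgStat5 libraries, against 31.7 and 18.8 CPM in sgControl libraries. Groups overlapped in both gates, and replicate 1 was above replicate 2 in all 4 groups. Without the block Ltb did not pass after commitment (adjusted p = 0.495). Within replicate numbers the post-commitment log2 difference was 0.90 and 0.79, and with the block the fold change was 0.85 (SE 0.11, edgeR adjusted p = 0.00224). Before commitment the block fit gave -0.07, which did not pass.

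Tnf, which lies between them, overlapped between guide groups before commitment and was separated after it only by the gap between 7.46 and 7.51 CPM. It measured 3.05 and 7.46 CPM in post-commitment sgStat5 libraries, against 7.51 and 10.7 CPM in post-commitment sgControl libraries. Its log2 fold change of -0.79 (SE 0.43) without the block and -0.84 (SE 0.29) with it did not pass (edgeR adjusted p = 0.528 and 0.120). The 3 neighbouring genes thus had different values after commitment: Lta past the threshold and lower in both fits, Tnf not past it, and Ltb past it and higher in the block fit.

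Tnfrsf9 encodes 4-1BB (CD137), a costimulatory receptor that is induced on activated T cells. Post-commitment counts came to 5.97 and 5.74 CPM in sgStat5 libraries, against 33.3 and 30.4 CPM in sgControl libraries. Pre-commitment counts came to 4.54 and 4.91 CPM in sgStat5 libraries, against 25.1 and 39.3 CPM in sgControl libraries. The 4 sgStat5 libraries were close to each other and all below the 4 sgControl libraries. Tnfrsf9 in sgStat5 cells was 18.4% of control after commitment and 14.7% before it. It fell by 2.44 on the log2 scale (SE 0.23, edgeR adjusted p = 0.00527) after commitment and fell by 2.77 (SE 0.23, edgeR adjusted p = 0.0133) before it. In the block fit both calls held without each library in turn, up to adjusted p = 0.00462 and 0.00296. Without the block the post-commitment call was lost without post-commitment sgStat5 replicate 1 (adjusted p = 0.0522). The pre-commitment call was lost without either pre-commitment sgStat5 library (0.109 and 0.0978) or pre-commitment sgControl replicate 2 (0.0633). Its ligand gene Tnfsf9 was at 0.905 to 2.29 CPM and did not pass in either gate.

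Tnfrsf18 encodes GITR, a costimulatory receptor abundant on regulatory T cells. Its levels were 9.19 and 10.0 CPM in post-commitment sgStat5 libraries, against 18.9 and 20.4 CPM in post-commitment sgControl libraries. In the pre-commitment gate they were 8.85 and 10.5 CPM in sgStat5 libraries, against 15.3 and 16.8 CPM in sgControl libraries. The groups did not overlap in either gate, and the sgStat5 means of the gates differed by less than the spread between replicates. The log2 fold change was -1.03 (SE 0.17, edgeR adjusted p = 0.0367) after commitment, and -0.73 (SE 0.17) before it, which did not pass (adjusted p = 0.257 without the block and 0.0506 with it). The post-commitment call without the block was lost whichever of the 8 libraries was left out (adjusted p = 0.0620 to 0.258). With the block it held in all 8 of these fits, up to adjusted p = 0.0454. Tnfsf18, which encodes the GITR ligand, had at most 0.0321 CPM.

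Cd27 had 192 and 167 CPM in post-commitment sgStat5 libraries, against 136 and 111 CPM in post-commitment sgControl libraries. Before commitment it had 122 and 106 CPM in sgStat5 libraries, against 97.3 and 80.9 CPM in sgControl libraries. The sgStat5 libraries were the higher ones in both gates, with no overlap. The size was small beside that of Lta: 0.54 (SE 0.07) after commitment and 0.36 (SE 0.07) before it on the log2 scale with the block. These passed in edgeR with the block (adjusted p = 0.00229 and 0.0411) and not without it (0.181 and 0.758). The pre-commitment call in the block fit was lost whichever library was left out (adjusted p = 0.0503 to 0.352), while the post-commitment call held in all 8 fits. An antisense transcript that overlaps Cd27, E130112N10Rik, had 4 to 66 counts, far below the 2473 to 4657 counts of Cd27.

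**Figure D2:**
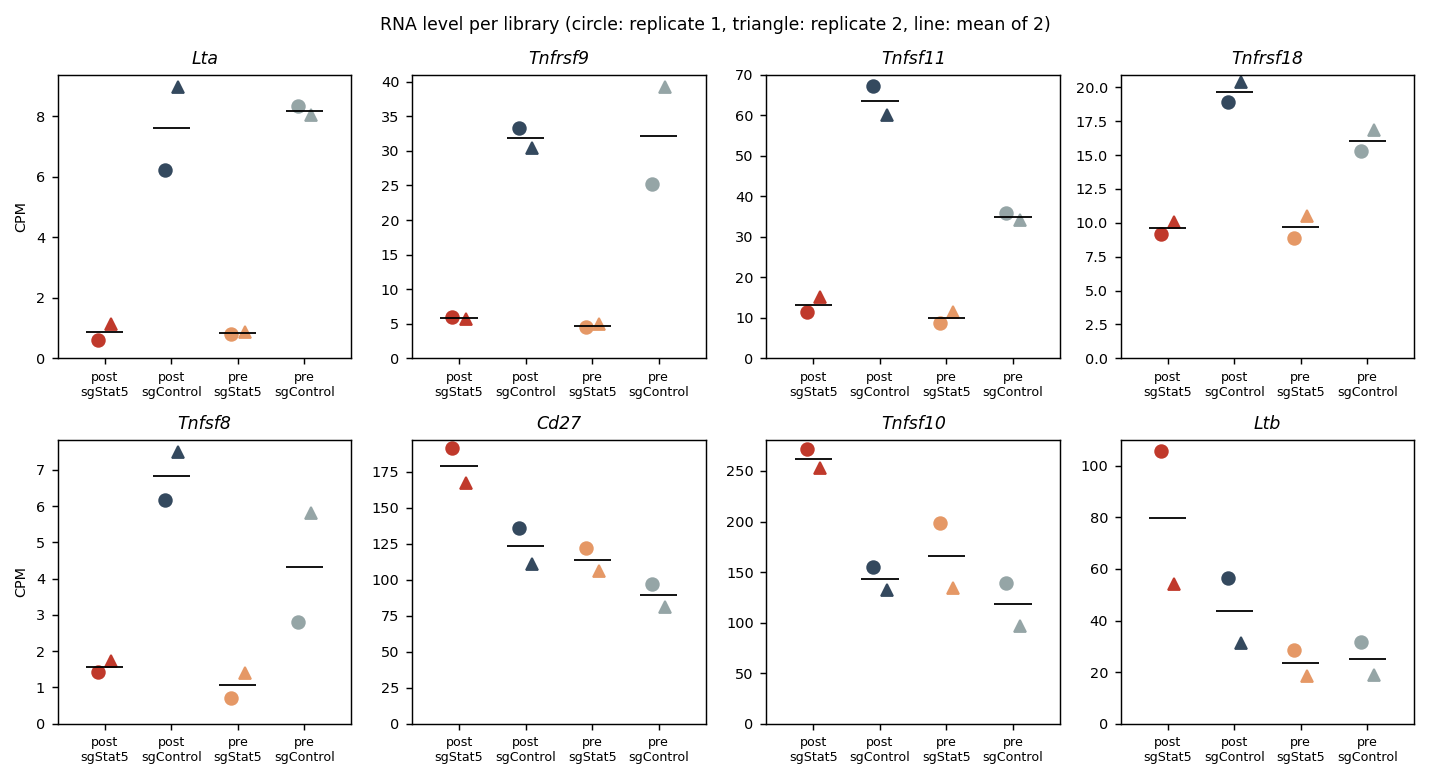
CPM in each library (circle, replicate 1; triangle, replicate 2; line, mean of 2) for the 8 members past the threshold in an sgStat5 comparison, without or with the block. In every panel the groups run post-commitment sgStat5, post-commitment sgControl, pre-commitment sgStat5 and pre-commitment sgControl. Lta, Tnfrsf9, Tnfsf11, Tnfrsf18 and Tnfsf8 show sgStat5 points below sgControl points in both gates, while Ltb overlaps in both.

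Of the remaining ligands and receptors none passed in either gate and either fit. Tnfrsf26, a receptor gene of mouse without a known ligand, was nearest among the higher ones. It had 36.4 and 39.9 CPM in post-commitment sgStat5 libraries, against 28.03 and 26.7 CPM in post-commitment sgControl libraries, and its log2 fold change of 0.48 (SE 0.15) had an adjusted p of 0.0943 with the block in edgeR. Tnfrsf13b, the receptor TACI for BAFF and APRIL, had 2.65 and 3.51 CPM in pre-commitment sgStat5 libraries, against 5.08 and 4.82 CPM in pre-commitment sgControl libraries. These did not overlap, but the value of -0.69 (SE 0.28) did not pass with the block (edgeR adjusted p = 0.351). The TNF receptors Tnfrsf1a and Tnfrsf1b had 15.2 to 29.0 CPM and 60.8 to 101.9 CPM and also did not pass.

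**Figure D3:**
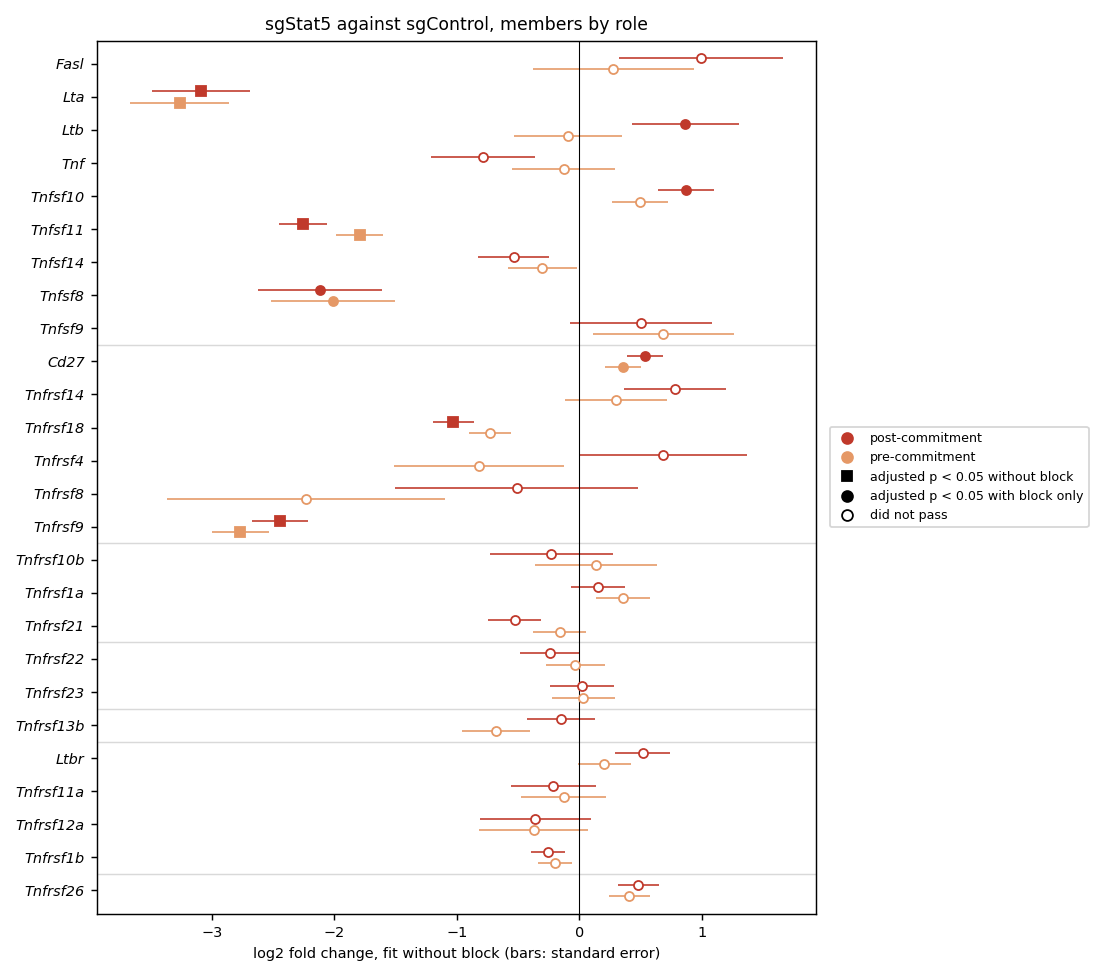
Log2 fold change of sgStat5 against sgControl with its standard error from the fit without the block, post-commitment above pre-commitment for each gene, for 26 of the 33 tested members in blocks of ligands, costimulatory, death-domain, decoy, BAFF and APRIL, other TRAF-binding and orphan receptors. Filled squares passed without the block, filled circles only with it, and open circles in neither. The 7 tested members with a median under 1 CPM are left out. The furthest points to the left are Lta at -3.09 and -3.26.

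Whether the sgStat5 effect itself differed between the gates was tested as the difference of the 2 log2 fold changes. No member and none of the 13775 genes passed (0%), without or with the block. At an unadjusted p under 0.05 there were 1 member and 302 genes without the block, and 3 members and 814 genes with it. For Lta the difference, post minus pre, was 0.17 (SE 0.54), for Tnfrsf9 0.32 (SE 0.31), for Tnfsf11 -0.46 (SE 0.27) and for Tnfrsf18 -0.30 (SE 0.24), all in the fit without the block. Ltb had 0.92 (SE 0.16) with the block, at an unadjusted p of 0.000319 and an edgeR adjusted p of 0.279. An effect past the threshold in 1 gate and not in the other, as for Tnfrsf18, Tnfsf10 and Ltb, is thus not shown to differ between gates. The guide groups of Fas, which also did not pass, lay in opposite order in the gates without overlap. After commitment Fas had 1.68 and 1.36 CPM in sgStat5 libraries, against 0.689 and 0.355 CPM in sgControl libraries. Before commitment it had 0 counts in both sgStat5 libraries, against 0.0787 and 0.257 CPM in sgControl libraries, which is few counts.

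Downstream of the receptors, 32 genes for adaptors, kinases, ubiquitin ligases and inhibitors of the pathway were followed, all of them tested. None passed for sgStat5 against sgControl in either gate without the block, with 5 (post) and 2 (pre) at an unadjusted p under 0.05. With the block none passed before commitment, and after it 1 was higher and 1 lower (6.25% of the list, beside 8.22% of all tested genes). The higher one was Birc3, which encodes the ubiquitin ligase cIAP2. It had 48.7 and 30.7 CPM in post-commitment sgStat5 libraries, against 22.2 and 18.4 CPM in post-commitment sgControl libraries, a log2 fold change of 0.94 (SE 0.15, edgeR adjusted p = 0.00601). The lower one was the adaptor gene Traf4, with 88.0 and 71.3 CPM in post-commitment sgStat5 libraries, against 114 and 89.0 CPM in post-commitment sgControl libraries. Its log2 fold change was -0.35 (SE 0.09) and its adjusted p of 0.04999 lay just under the threshold. Neither gene overlapped between the guide groups of that gate.

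Markers of other lineages were read beside these results. Innate lymphoid and NK markers, 8 genes, summed to 40.6 to 56.8 CPM in post-commitment sgStat5 libraries, against 17.3 to 31.2 CPM in post-commitment sgControl libraries. Before commitment they summed to 76.6 to 84.9 CPM in sgStat5 libraries, against 58.2 to 59.1 CPM in sgControl libraries. Most of the sum was Zbtb16, Rora went the same way, and Klrb1c stayed under 1 CPM in every library. Ncr1, Tbx21 and Il1rl1, each at most 1.53 CPM, did not share that direction throughout. Before commitment Ncr1 had 0.539 and 1.18 CPM in sgStat5 libraries, against 0.630 and 1.48 CPM in sgControl libraries. These sums thus moved the opposite way to Lta, Tnfsf11 and Tnfrsf9 and the same way as Tnfsf10 and Cd27, and their part in those results was not tested. The 9 myeloid and dendritic markers summed to 13.7 to 22.9 CPM in post-commitment sgStat5 libraries, against 11.1 to 17.1 CPM in post-commitment sgControl libraries. These post-commitment sums overlapped between guide groups. Before commitment they summed to 75.4 to 101.5 CPM in sgStat5 libraries, against 53.4 to 56.8 CPM in sgControl libraries. Mpo was the largest part there, at 55.8 and 32.1 CPM in sgStat5 libraries, against 21.7 and 17.8 CPM in sgControl libraries. Cd68 was lower in sgStat5 within each replicate number in both gates. Its pre-commitment values were 6.29 and 5.21 CPM, against 7.01 and 6.46 CPM in sgControl libraries. Lyz2 and Fcgr3 were mixed in direction, and Elane and Cd14 stayed under 1 CPM. The 9 stromal markers overlapped between guide groups. After commitment they summed to 251.5 to 537.9 CPM in sgStat5 libraries, against 222.5 to 590.6 CPM in sgControl libraries. Before it they summed to 111.9 to 315.1 CPM, against 140.9 to 357.1 CPM in the same order. Replicate 2 was the higher in all 4 groups, so this overlap says little about the guides. Within replicate number sgStat5 was the lower in both pairs before commitment. After commitment it was the higher in replicate 1 and the lower in replicate 2. The 7 mast, basophil and megakaryocyte-erythroid markers summed to 331.6 to 498.2 CPM in post-commitment sgStat5 libraries, against 242.8 to 320.2 CPM in post-commitment sgControl libraries. Before commitment these sums overlapped between guide groups, although sgStat5 was the higher within replicate 1 (756.4 against 661.6 CPM) and within replicate 2 (369.1 against 315.7 CPM). Most of the sum was Cpa3, at 493.74 of 498.2 CPM in post-commitment sgStat5 replicate 1. Tpsb2, Ms4a2, Pf4 and Hba-a1 stayed under 1 CPM in every library. Mcpt8 went the other way before commitment, with 12.76 and 15.07 CPM in sgStat5 libraries, against 20.94 and 24.01 CPM in sgControl libraries. After commitment its guide groups overlapped.

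Between the gates, family members changed in both directions, and the calls rested on the block. In sgStat5 cells Ltb, Cd27, Tnfsf10, Tnfrsf14, Tnfrsf8, Tnfrsf1b and Fas were higher after commitment, and Ltbr, Tnf, Tnfsf14 and Tnfrsf21 were lower. In sgControl cells Ltb, Cd27, Tnfsf11 and Tnfrsf1b were higher and Ltbr was lower. Without the block no member passed in either arm, with 11 (sgStat5) and 5 (sgControl) members at an unadjusted p under 0.05, where 0.973% and 0.0145% of all tested genes were called (0.661% higher and 0.312% lower in sgStat5 cells, and 0.0145% higher and 0% lower in sgControl cells). With the block 11 of 33 members (33.3%) passed in sgStat5 cells, 7 higher and 4 lower, where 22.8% of all tested genes were called, 11.3% higher and 11.5% lower. In sgControl cells 5 of 33 (15.2%) passed, 4 higher and 1 lower, where 10.9% of all tested genes did, 6.64% higher and 4.3% lower. Libraries of the gates did not overlap for 12 higher and 8 lower members in sgStat5 cells, where 28.1% of all tested genes were higher and 28.1% lower in this way, and for 8 higher and 7 lower members in sgControl cells, where 24.6% and 24.2% were. Within guide arm and replicate number, marker sums also differed between the gates in all 4 pairs. Post-commitment sums were 0.135 to 0.321 times the pre-commitment sums for myeloid markers, 0.297 to 0.741 times for innate lymphoid and NK markers and 0.484 to 0.899 times for mast, basophil and megakaryocyte-erythroid markers. They were 1.58 to 2.25 times for stromal, 1.25 to 1.88 times for B-cell and 1.14 to 1.29 times for T-progenitor markers. Pdgfrb, at 69.4 to 110 CPM, was 110 of the 111.9 CPM stromal sum in pre-commitment sgStat5 replicate 1. Col1a1 differed more, with 0 and 36.2 CPM before and 29.2 and 76.3 CPM after commitment in sgStat5 libraries. In sgControl libraries it had 7.99 and 50.3 CPM before and 28.9 and 83.0 CPM after. Of the B-cell list, Cd79b went from 7.65 to 7.24 CPM and Ebf1 from 2.47 to 5.31 CPM in sgStat5 replicate 2. The T-progenitor list includes Bcl11b, whose reporter set the gates, so the rise of its sum is partly fixed by the sort. Kit and Cd44 of that list were lower after commitment in all 4 pairs. Kit had 475, 455, 346 and 357 CPM before and 217, 309, 198 and 253 CPM after (sgStat5 replicates 1 and 2, then sgControl replicates 1 and 2). The part of these markers in the gate comparison was not tested.

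In sgStat5 cells all post-commitment libraries were above all pre-commitment libraries for Ltb, whose CPM values are given above, and in sgControl cells the gates overlapped only by the pre-commitment replicate 1. The block fit gave a log2 fold change of 1.71 (SE 0.12, edgeR adjusted p = 8.85e-05) in sgStat5 cells and 0.79 (SE 0.12, edgeR adjusted p = 0.00566) in sgControl cells. The sgControl call was lost without pre-commitment sgControl replicate 1 (adjusted p = 0.106) or post-commitment sgControl replicate 1 (0.0685).

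Its receptor gene Ltbr, which activates the alternative NF-kappaB pathway and is mostly found on stromal and myeloid cells, went the other way. It had 7.43 and 8.32 CPM in post-commitment sgStat5 libraries and 4.40 and 6.58 CPM in post-commitment sgControl libraries. Pre-commitment libraries had 20.7 and 18.7 CPM in sgStat5 cells and 16.9 and 17.4 CPM in sgControl cells. Every post-commitment library lay below every pre-commitment one. The log2 fold change with the block was -1.33 (SE 0.20, edgeR adjusted p = 0.00290) in sgStat5 cells and -1.65 (SE 0.21, edgeR adjusted p = 0.00324) in sgControl cells. Without the block these were at adjusted p = 0.0515 and 0.120. In sgControl cells the block call was lost without pre-commitment sgControl replicate 1 (0.0529).

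Cd27 was higher after commitment by 0.65 (SE 0.07, edgeR adjusted p = 0.000767) in sgStat5 cells and by 0.47 (SE 0.07, edgeR adjusted p = 0.00676) in sgControl cells with the block, on the log2 scale. The sgControl call was lost without either replicate 1 of that arm (adjusted p = 0.101 without the pre-commitment and 0.0804 without the post-commitment library). Tnfsf10 was higher by 0.69 (SE 0.12, edgeR adjusted p = 0.00422) in sgStat5 cells with the block, while in sgControl cells its value of 0.30 (SE 0.12) did not pass (0.130). Tnfsf11 showed the reverse order of calls. It was higher after commitment by 0.86 (SE 0.16, edgeR adjusted p = 0.0141) in sgControl cells with the block, and its value of 0.40 (SE 0.18) in sgStat5 cells did not pass (0.136). The sgControl call was lost without either pre-commitment sgControl library (0.106 and 0.0799) or post-commitment sgControl replicate 1 (0.202). These gate comparisons use the same libraries as the guide comparisons, and the test of the difference above is the one that sets the arms against each other.

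Tnf and its receptor gene Tnfrsf1b changed in opposite directions in sgStat5 cells. Tnf had 3.05 and 7.46 CPM in post-commitment sgStat5 libraries, against 8.85 and 13.0 CPM in pre-commitment sgStat5 libraries. The groups did not overlap, and the value with the block was -1.10 (SE 0.29, edgeR adjusted p = 0.0245), lost without either pre-commitment sgStat5 library (0.0971 and 0.0756) or post-commitment sgStat5 replicate 1 (0.181, with a value of -0.70). Tnfrsf1b, TNF receptor 2, was higher by 0.30 (SE 0.09, edgeR adjusted p = 0.0426) in sgStat5 cells and by 0.36 (SE 0.09, edgeR adjusted p = 0.0365) in sgControl cells. In sgStat5 cells its call survived only the removal of either post-commitment sgControl library, and was otherwise lost (adjusted p = 0.0590 to 0.291). In sgControl cells it was lost without any of 5 libraries: both pre-commitment sgControl, both post-commitment sgStat5 and post-commitment sgControl replicate 1 (0.0534 to 0.382).

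Tnfsf14 (LIGHT) and its receptor gene Tnfrsf14 (HVEM) also had opposite signs. Tnfsf14 measured 4.64 and 4.34 CPM in post-commitment sgStat5 libraries, against 8.27 and 9.79 CPM in pre-commitment sgStat5 libraries, a change of -0.998 (SE 0.25, edgeR adjusted p = 0.0206) with the block. Tnfrsf14 measured 15.6 and 13.4 CPM in post-commitment sgStat5 libraries, against 7.32 and 7.20 CPM in pre-commitment sgStat5 libraries, a change of 0.98 (SE 0.30, edgeR adjusted p = 0.0431) with the block. Neither overlapped between the gates. The Tnfsf14 call was lost without any of the 4 sgStat5 libraries (0.0549 to 0.130). The Tnfrsf14 call was lost without pre-commitment sgStat5 replicate 1, either post-commitment sgStat5 library or either pre-commitment sgControl library (0.0598 to 0.269).

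Among receptors with a death domain, Tnfrsf21 and Fas differed between the gates in sgStat5 cells. Tnfrsf21 had 29.2 and 42.0 CPM in post-commitment sgStat5 libraries, against 60.7 and 51.9 CPM in pre-commitment sgStat5 libraries. Its change of -0.67 (SE 0.20, edgeR adjusted p = 0.0390) with the block was lost without either replicate 1 of that arm (value -0.48 and adjusted p = 0.238 without the pre-commitment library, -0.37 and 0.333 without the post-commitment one). Fas, the receptor of FasL, had 1.68 and 1.36 CPM in post-commitment sgStat5 libraries and 0 counts in both pre-commitment sgStat5 libraries. Set against 3 counts over the group, this was at least 24.7-fold higher (edgeR adjusted p = 0.0133 with the block and 0.0680 without). The block call for Fas was lost without either sgStat5 replicate 1 (0.0660 without the pre-commitment and 0.0843 without the post-commitment library). In sgControl cells Fas had 0.689 and 0.355 CPM after commitment, against 0.0787 and 0.257 CPM before it, and did not pass. The ligand gene Fasl had 0.613 to 3.03 CPM and did not pass in either arm.

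Tnfrsf8, which encodes CD30, was low before commitment. It had 3.36 and 3.16 CPM in post-commitment sgStat5 libraries, against 0 and 0.406 CPM in pre-commitment sgStat5 libraries. These did not overlap, and the block fit gave 3.84 (SE 0.96, edgeR adjusted p = 0.0213), a value that depends on the counts near 0 in the pre-commitment gate: with 1 library left out it ran from 2.65, without pre-commitment sgStat5 replicate 1, to 9.83, without pre-commitment sgStat5 replicate 2, where the remaining library is at 0 and the value is no measure of size. The call was lost without pre-commitment sgStat5 replicate 1 (0.0631) or either post-commitment sgStat5 library (0.0839 and 0.0856). In sgControl cells Tnfrsf8 had 6.97 and 2.32 CPM after commitment, against 1.18 and 0.836 CPM before it, and its value of 2.15 (SE 0.82) with the block did not pass (adjusted p = 0.127).

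**Figure D4:**
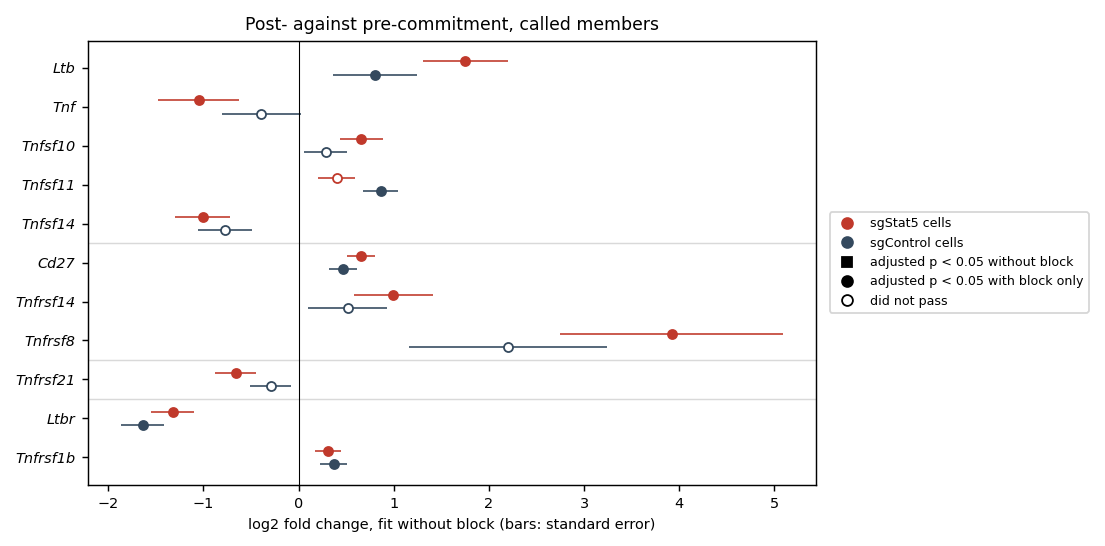
Log2 fold change of post-commitment against pre-commitment with its standard error from the fit without the block, sgStat5 above sgControl for each gene, for 11 members past the threshold in either arm. Fas is left out because its pre-commitment sgStat5 counts are 0. Filled circles passed only with the block, open circles in neither fit. Ltb, Cd27 and Tnfrsf1b lie right of 0 and Ltbr left of it in both arms.

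In the signalling list, 7 genes were higher and 2 lower of 32 after commitment in sgStat5 cells with the block (28.1% of the list, beside 22.8% of all tested genes). In sgControl cells 2 were higher and 1 lower (9.38% of the list, beside 10.9% of all tested genes). Without the block none of the 32 passed in either arm, with 8 (sgStat5) and 4 (sgControl) at an unadjusted p under 0.05. Tnfaip3, which encodes the NF-kappaB inhibitor A20, had 88.7 and 63.4 CPM in post-commitment sgStat5 libraries and 81.3 and 27.1 CPM in post-commitment sgControl libraries. Pre-commitment libraries had 20.6 and 18.6 CPM in sgStat5 cells and 28.3 and 15.6 CPM in sgControl cells. Its log2 fold change was 1.92 (SE 0.28, edgeR adjusted p = 0.00226) in sgStat5 cells and 1.22 (SE 0.27, edgeR adjusted p = 0.0253) in sgControl cells with the block, and without it the adjusted p was 0.0948 and 0.306. In sgControl cells the gates overlapped for Tnfaip3. It is given as an example, and not every called gene of the list is named. Mlkl of the same list went the other way without overlap in either arm. It had 27.7 and 48.9 CPM after and 80.0 and 100.3 CPM before commitment in sgStat5 libraries. In sgControl libraries Mlkl had 26.8 and 43.4 CPM after and 60.5 and 74.6 CPM before it.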

How the data were processed

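The authors deposited raw counts for 24506 genes, made per the file headers with HOMER's analyzeRepeats over RefSeq exons on mm10, 1 transcript per gene and without adjustment. Their FPKM values, per the file headers, come from the same HOMER command with its length and library-total scaling. Demultiplexing with bcl2fastq (1.8.4) is listed in the submitters' processing notes beside STAR (2.4.0) and RSEM (1.2.25). No strand option is named, so genes that overlap on opposite strands cannot be told apart.

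The count table was tested in R 4.3.3 with edgeR 4.0.16. After filterByExpr 13775 genes remained, and TMM set the library scaling. One two-sided quasi-likelihood F-test model covered all 8 libraries and had a mean for each of 4 groups. Benjamini-Hochberg adjustment ran over all tested genes, with a threshold of 0.05. SE was obtained from the log2 fold change and the F statistic, as the size of the first over the root of the second. CPM values use TMM-scaled totals. Every adjusted p in the text is from this edgeR test unless another tool is named.

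Replicate numbers pair the libraries: deviations of replicate 1 from the group mean correlated across genes between all pairs of groups, with 6 coefficients from 0.421 to 0.578. A fit with the number as a block was therefore added. Its common dispersion was 0.0178, against 0.0853 without the block. Members and gene lists were chosen with earlier results of these data known. Values are given for every member past the threshold in any comparison and for its partner ligand or receptor, and the 5 highest ligands and receptors by FPKM are named. Alternatives were DESeq2 1.42.0, limma 3.58.1 on log2(FPKM + 1), RLE scaling, other filters, only the groups compared, and each library left out. The edgeR fit was tested on simulated data. Single values of some lineage markers are not reported here.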

Additional observations from a re-analysis of the deposited data

How the results depend on the processing

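With the replicate block the count of members past the threshold became 8 post-commitment and 5 pre-commitment for sgStat5 against sgControl, and 11 (sgStat5) and 5 (sgControl) for post against pre, where the fits without it gave 4, 3, 0 and 0. DESeq2 called 7 members post-commitment for sgStat5 against sgControl, and 7 (sgStat5) and 2 (sgControl) between the gates. With only the groups compared in the fit, 0 passed for sgStat5 in either gate. Fewer libraries estimate the spread in that fit, and the reason for the lost calls was not tested. Limma on log2(FPKM + 1) called 1 member between the gates in sgStat5 cells, and without a filter on FPKM 0 for sgStat5 pre-commitment. With no filter on low counts 4 (sgStat5) and 1 (sgControl) passed between the gates, and with at least 5 CPM in 2 libraries 1 passed in sgStat5 cells. For the other alternatives counts stayed within 1.5 times.

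With each library left out in turn, without and with the block, the count ran from 1 to 8 post-commitment and from 0 to 4 pre-commitment for sgStat5 against sgControl, and from 0 to 11 (sgStat5) and 0 to 6 (sgControl) between the gates. Without the block the pre-commitment count was 0 without pre-commitment sgStat5 replicate 1 or 2 or sgControl replicate 2, and 1 without pre-commitment or post-commitment sgControl replicate 1. Log2 fold changes were followed through these fits for 48 results, the called members and the guide or gate counterparts of their calls, and not for the other members or the signalling list. Of the 48, those that changed sign had not passed: Ltb pre-commitment (-0.43 to 0.32), Tnfrsf14 post against pre in sgControl cells (-0.29 to 1.03), and the difference of the sgStat5 effects for Lta (-0.35 to 0.56), Tnfrsf9 (-0.053 to 0.66) and Tnfsf8 (-0.73 to 0.46). The cause of these changes was not tested. No called value among the 48 changed sign. With 2 libraries a group and many members at a few CPM, a member that did not pass is not shown to be equal between groups.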

Other observations

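Among the 33 tested members, 5 (15.2%) had more RNA in replicate 1 than in replicate 2 in all 4 groups: Cd27, Ltb, Tnfrsf14, Tnfrsf1b and Tnfsf10. Another 5 had more in replicate 2 in all 4 groups: Tnf, Tnfrsf11b, Tnfrsf13c, Tnfrsf18 and Tnfsf8. Over all tested genes the shares were 19.3% and 19.5%. Along the genome, 9 of the 41 members lie on chromosome 4 and 8 on chromosome 17.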
